A study of Mus musculus with 16 samples.

Results

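The genes described here are Atf4 and 9 genes that the transcription factor ATF4 is known to control: Ddit3, Trib3, Asns, Psat1, Phgdh, Psph, Chac1, Sesn2 and Ddit4. They were taken from the count table by gene symbol, and all 10 were found among its 54392 rows. The count filter kept 9 of them, among 14321 genes tested. Trib3 was too low to be tested. The counts come from RNA-seq of colonocytes, the absorptive epithelium of the large bowel, taken from mice of the C57BL/6 strain. The mice were kept for 3 weeks on a corn oil and cellulose diet (9 libraries) or on a fish oil and pectin diet (7 libraries). Corn oil is rich in n-6 fatty acids and cellulose is poorly fermented, whereas fish oil supplies n-3 fatty acids and pectin is readily fermented by gut bacteria. Genotype, sex and age are not given in the sources used. Because oil and fibre were changed together, their separate contributions cannot be told apart.

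ATF4 is the main effector of the integrated stress response. When amino acids run short, when misfolded protein builds up in the endoplasmic reticulum, when haem is lacking or when a virus is sensed, 1 of 4 kinases phosphorylates the initiation factor eIF2α, bulk translation falls, and the ATF4 mRNA is translated more. The ATF4 protein then turns on genes for amino acid synthesis and import, tRNA charging and, under lasting stress, cell death, so that much of the control of ATF4 lies in its translation, which mRNA counts do not measure. In the gut epithelium the response is known from nutrient shortage, from the secretory load of goblet cells and from infection.

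Libraries held 13996288 to 19512755 counts. Their names took 2 forms: 10 began with GC, 5 for each diet, and 6 did not, 4 for corn oil/cellulose and 2 for fish oil/pectin. The labels do not explain the prefix. The model therefore held a term for the form of the name, and several of these genes differed by it. The labels call the libraries biological replicates and name no animal, so the p-values below rest on the spread among libraries. Y-linked transcripts summed to under 100 counts in 7 of the 10 GC-named libraries (corn oil/cellulose 6 to 8 and fish oil/pectin 4 to 7) and in 0 of the 6 others. All 11 epithelial markers were detected in every library (summed level 23200 to 40700 CPM, read counts scaled to a common library size). The 7 goblet cell markers were also present (summed level 3870 to 11100 CPM). The 7 B and plasma cell markers, 6 fibroblast markers and 5 smooth muscle markers were near 0 (summed level at most 4.41 CPM). Macrophage and myeloid markers summed to 6.62 to 14.3 CPM, endothelial markers to 3.79 to 12.3 CPM and nerve and glia markers to 3.5 to 7.61 CPM. Markers of T and NK cells were low but uneven. Their summed level was 40.1 to 77.9 CPM in GC-named corn oil/cellulose libraries, 15.2 to 33.6 CPM in GC-named fish oil/pectin libraries and 11.4 to 18 CPM in all others. Fish oil/pectin libraries 6 and 7 stood apart from the other 5 of their diet in several genes below, where values without them are also given.

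Promoters are shown first for the 3 genes that rose with fish oil/pectin, Asns, Psat1 and Phgdh, and for Chac1, which did not pass the test but carries a motif that ATF4 is known to bind. The motif is the core of the C/EBP-ATF response element, TGATGNAA on either strand, where ATF4 binds as a partner of a C/EBP protein. Sequences come from RefSeq on GRCm38.p6, run 5′ to 3′ on the strand of the gene and end at the base before the annotated start. Capitals mark the motif. The windows are chr6:7693210-7693369 (minus strand) for Asns, chr19:15925060-15925219 (minus strand) for Psat1, chr3:98339970-98340129 (minus strand) for Phgdh and chr2:119350992-119351241 (plus strand) for Chac1.
Asns: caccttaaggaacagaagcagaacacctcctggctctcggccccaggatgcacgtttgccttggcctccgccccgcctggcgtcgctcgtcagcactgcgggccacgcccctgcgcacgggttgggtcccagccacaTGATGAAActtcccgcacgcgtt
Psat1: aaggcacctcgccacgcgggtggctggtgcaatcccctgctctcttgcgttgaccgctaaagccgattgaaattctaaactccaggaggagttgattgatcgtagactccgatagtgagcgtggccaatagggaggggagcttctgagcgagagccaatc
Phgdh: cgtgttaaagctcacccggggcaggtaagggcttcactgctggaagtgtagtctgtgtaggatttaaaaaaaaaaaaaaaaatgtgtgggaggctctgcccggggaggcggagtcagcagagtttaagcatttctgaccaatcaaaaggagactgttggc
Chac1: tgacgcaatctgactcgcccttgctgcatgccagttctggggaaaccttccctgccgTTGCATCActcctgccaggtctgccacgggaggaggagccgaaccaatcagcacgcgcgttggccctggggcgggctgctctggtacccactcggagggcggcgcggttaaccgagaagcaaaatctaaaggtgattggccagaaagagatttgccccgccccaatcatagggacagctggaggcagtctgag
In the window of 250 bases before to 50 after the start, the motif was found in Asns at -23 (TGATGAAA), in Chac1 at -193 (TTGCATCA, the reverse complement) and in Trib3 at 15 bases after the start (TTACATCA, the reverse complement). So 3 of the 11 promoters listed for the 10 genes held it (Psat1 has a pair of starts), against 3.97% of the 32851 promoters in the RefSeq table. Psat1 and Phgdh, whose increase was larger than that of Asns, had no such letters in this window. For Psat1 both RefSeq starts lie inside the gene span of the GENCODE annotation (15904678 to 15947337, minus strand). The sequence before the GENCODE start was not searched. The CCAAT box (CCAAT, either strand) was in 8 of the 11 promoters against 37.4% of all. The core of the antioxidant response element (TGACNNNGC, either strand), the site of NRF2, was in those of Phgdh, Sesn2, Psph and Asns, 4 of the 11, against 12.4% of all. The cAMP response element (TGACGTCA) and the E-box (CACGTG) were in none of the 11, against 1.79% and 7.15% of all. These are counts of letters in a fixed window and say nothing of binding.

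With diet as the question, 3 of the 9 tested genes were higher with fish oil/pectin and 0 were lower. All 3 encode enzymes that make amino acids. Phgdh, the first enzyme of serine synthesis from glycolysis, was 2.52-fold higher, Psat1, which catalyses the second step, 1.97-fold, and Asns, which makes asparagine, 1.6-fold. Over all 14321 genes, 41.7% passed the same test (edgeR quasi-likelihood, Benjamini-Hochberg adjusted p under 0.05), 21.7% higher and 20.1% lower, so a share of 3 in 9 is not far from the background. The median log2 fold change was 0.20 over the 9 genes and -0.0043 over all genes tested. In bulk RNA, more cells of a type and more RNA per cell cannot be told apart.

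**Figure D1:**
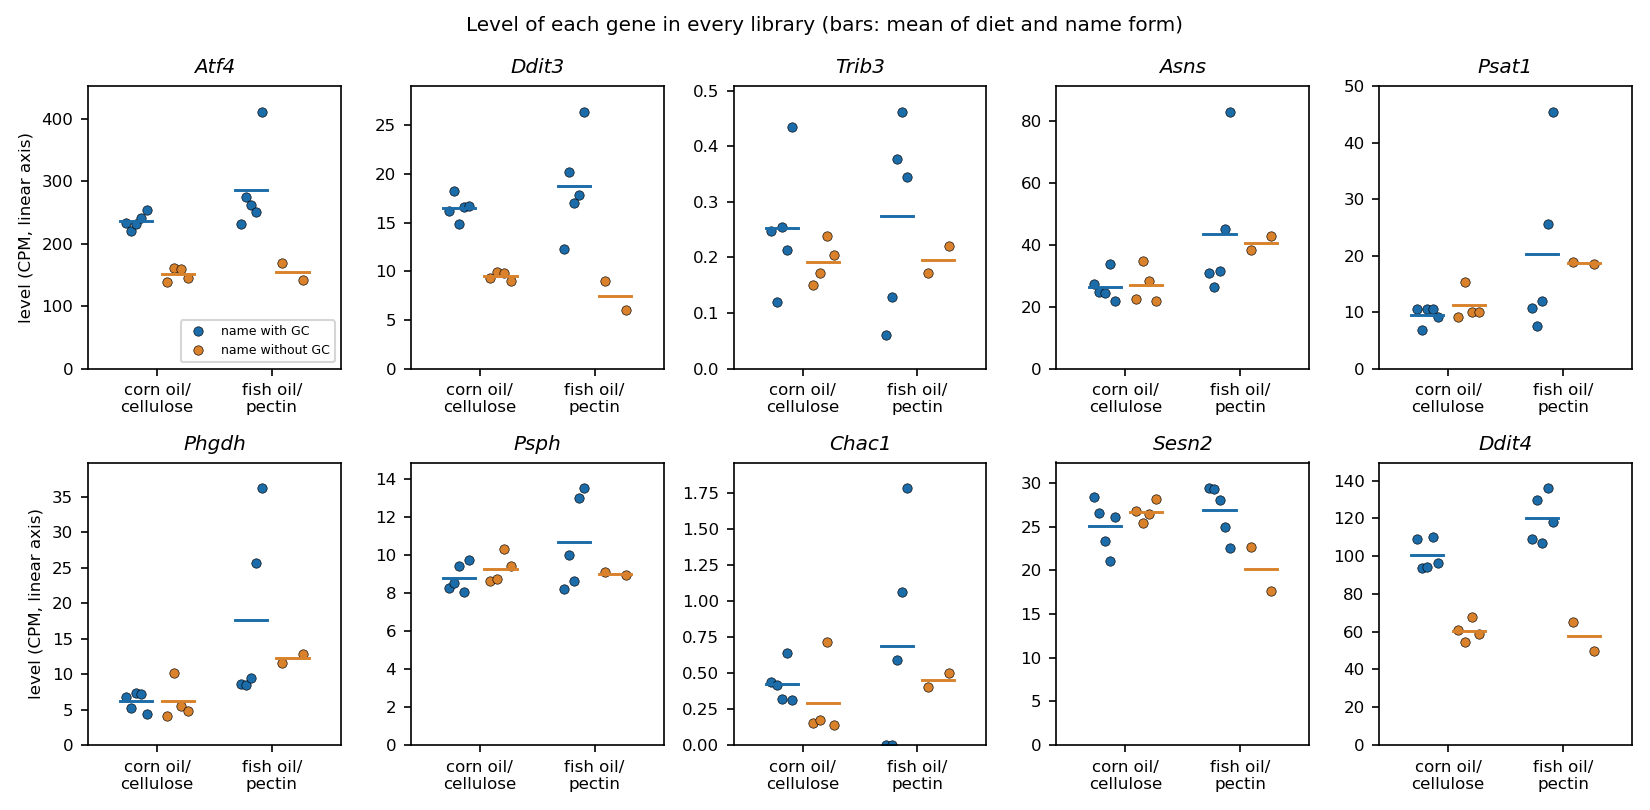
Level of each of the 10 genes in every library (vertical axis, CPM on a linear axis from 0; 1 point per library; blue, names with GC; orange, names without; short lines, means of diet and name form). Phgdh was higher in each fish oil/pectin library than in each corn oil/cellulose library of the same name form, whereas Atf4, Ddit3 and Ddit4 separated by name form: Atf4 lay at 220 to 411 CPM in GC-named libraries and at 138 to 169 CPM in the others.

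Among the transcription factors, Atf4 (ENSMUSG00000042406.8, chromosome 15, 80255184 to 80257541, plus strand, GRCm38) was at 138, 161, 160 and 145 CPM in corn oil/cellulose libraries 1 to 4 and at 233, 220, 231, 241 and 253 CPM in libraries 5 to 9, which are the GC-named ones. It was at 169 and 141 CPM in fish oil/pectin libraries 1 and 2, without the GC prefix, and at 232, 275, 261, 250 and 411 CPM in GC-named libraries 3 to 7. The diets overlapped in both name forms, and fish oil/pectin library 7 was the highest of all. The diet difference was 0.20 ± 0.10 (log2 fold change, SE) and did not pass (edgeR adjusted p = 0.12). It was 0.08 without library 7 (adjusted p = 0.267). Per kilobase of exon, Atf4 had the highest mean level of the 10 genes over the 16 libraries, 93.3 CPM, followed by Ddit4 (52), Asns (12.3), Ddit3 (8.37), Sesn2 (7.32), Phgdh (4.23), Psat1 (3.39), Psph (2.2), Chac1 (0.291) and Trib3 (0.112). Each gene's range over libraries overlapped that of the next in this order, except that Psph lay above Chac1.

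Ddit3 encodes CHOP, a C/EBP-family partner of ATF4 linked to cell death under lasting stress (chromosome 10, 127290774 to 127296288, plus strand). Its mean level was 13.4 ± 3.81 CPM (SD, n = 9) in the corn oil/cellulose group, against 15.5 ± 6.98 CPM (SD, n = 7) in the fish oil/pectin group. GC-named libraries lay at 14.9 to 18.2 and 12.3 to 26.4 CPM in the respective diets, and the others at 8.96 to 9.94 and 6.01 to 8.96 CPM. The diet log2 fold change was 0.02 ± 0.14 (edgeR adjusted p = 0.939), and its sign changed with the setting. Ddit3 lies over parts of Mars and Gm4189 on the opposite strand. The counting's strand setting is not given in the sources used, so some reads may belong to those genes.

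Of the enzymes, Phgdh (ENSMUSG00000053398.11, chromosome 3, 98313170 to 98339990, minus strand) had the largest difference of the 10. In libraries without the GC prefix it was at 4.1, 10.2, 5.55 and 4.79 CPM with corn oil/cellulose and at 11.6 and 12.8 CPM with fish oil/pectin. In GC-named libraries it was at 6.76, 5.27, 7.36, 7.19 and 4.34 CPM with corn oil/cellulose and at 8.57, 8.41, 9.42, 25.6 and 36.2 CPM with fish oil/pectin. All fish oil/pectin libraries lay above all corn oil/cellulose libraries of their own name form, as did 6.09% of all genes tested. Corn oil/cellulose library 2, the highest of its diet, still exceeded fish oil/pectin libraries 3 to 5. The log2 fold change was 1.33 ± 0.32 (edgeR adjusted p = 0.00415). A pseudogene, Phgdh-ps1, may share reads with Phgdh.

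Psat1 (ENSMUSG00000024640.9, chromosome 19, 15904678 to 15947337, minus strand) was at 9.1, 15.4, 10.1 and 10.1 CPM with corn oil/cellulose and at 18.8 and 18.6 CPM with fish oil/pectin in libraries without the GC prefix. In GC-named libraries it was at 10.5, 6.82, 10.5, 10.5 and 9.12 CPM and at 10.8, 7.57, 12, 25.6 and 45.5 CPM in the respective diets. Libraries 1, 2, 6 and 7 of fish oil/pectin were above every corn oil/cellulose library, and libraries 3 to 5 were within the corn oil/cellulose range. The log2 fold change was 0.98 ± 0.30 (edgeR adjusted p = 0.0178). The processed pseudogene Gm3329 lies inside the gene on the other strand.

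Asns (ENSMUSG00000029752.12, chromosome 6, 7675169 to 7693254, minus strand) was at 22.4, 34.9, 28.3 and 22 CPM with corn oil/cellulose and at 38.4 and 42.9 CPM with fish oil/pectin in libraries without the GC prefix. In GC-named libraries it was at 27.2, 24.7, 24.4, 33.8 and 21.7 CPM and at 30.8, 26.4, 31.6, 45.2 and 83.1 CPM in the respective diets. Its pattern was that of Psat1: fish oil/pectin libraries 1, 2, 6 and 7 lay above all 9 corn oil/cellulose libraries and the other 3 overlapped them. In the libraries without the GC prefix, Asns, Psat1 and Phgdh did not overlap between diets, as 18.1% of all genes did not with fish oil/pectin above. The log2 fold change of Asns was 0.68 ± 0.20 (edgeR adjusted p = 0.0146).

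Psph (chromosome 5, 129765558 to 129787449, minus strand), the phosphatase that completes serine synthesis after Phgdh and Psat1, did not pass. It was at 8.04 to 10.3 CPM (median 8.74) with corn oil/cellulose and at 8.21 to 13.5 CPM (median 9.08) with fish oil/pectin, with a log2 fold change of 0.17 ± 0.11 (edgeR adjusted p = 0.241). Only fish oil/pectin libraries 6 and 7, at 13 and 13.5 CPM, exceeded the corn oil/cellulose range. Without them the log2 fold change was -0.01. The gene overlaps Cct6a on the opposite strand.

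Of the 3 increases, those of Asns and Phgdh passed again without fish oil/pectin libraries 6 and 7, at a smaller size, and that of Psat1 did not. The log2 fold changes were then 0.35 for Asns (edgeR adjusted p = 0.045), 0.38 for Psat1 (adjusted p = 0.0771) and 0.71 for Phgdh (adjusted p = 0.00915). In that fit 15.2% of 14247 genes were higher. Without library 7 alone all 3 passed, at 0.44, 0.63 and 1.04. The numbers in the library names form a lower and a higher series, and all fish oil/pectin libraries are in the lower one. Within the lower series (4 corn oil/cellulose and 7 fish oil/pectin libraries) the sizes were 0.64, 0.96 and 1.22, and none of the 3 passed (adjusted p = 0.146, 0.176 and 0.109). There 8.37% of genes were called higher. Without the filter on low counts Phgdh alone passed, as did 9.41% of 28219 genes in the higher direction. T and NK cell markers moved the other way from the enzymes: 7 of 9 fell, the median over the 9 was -1.02, and 0 fell in a fit of the libraries without the GC prefix alone. Of the 11 epithelial markers 6 rose and 0 fell, with a median of 0.29, and both nerve and glia markers that could be tested fell. Over all genes 21.7% rose and 20.1% fell in the main fit. With a score of all non-epithelial markers as a covariate the sizes were 0.64, 0.84 and 1.09, and none of the 3 passed (adjusted p = 0.191, 0.237 and 0.154), where 1.29% of genes were called higher. The part of these cells in the 3 increases was not tested. With Y-linked transcripts as a covariate all 3 passed, at 0.62, 0.90 and 1.21 (adjusted p = 0.026, 0.0363 and 0.00785).

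**Figure D2:**
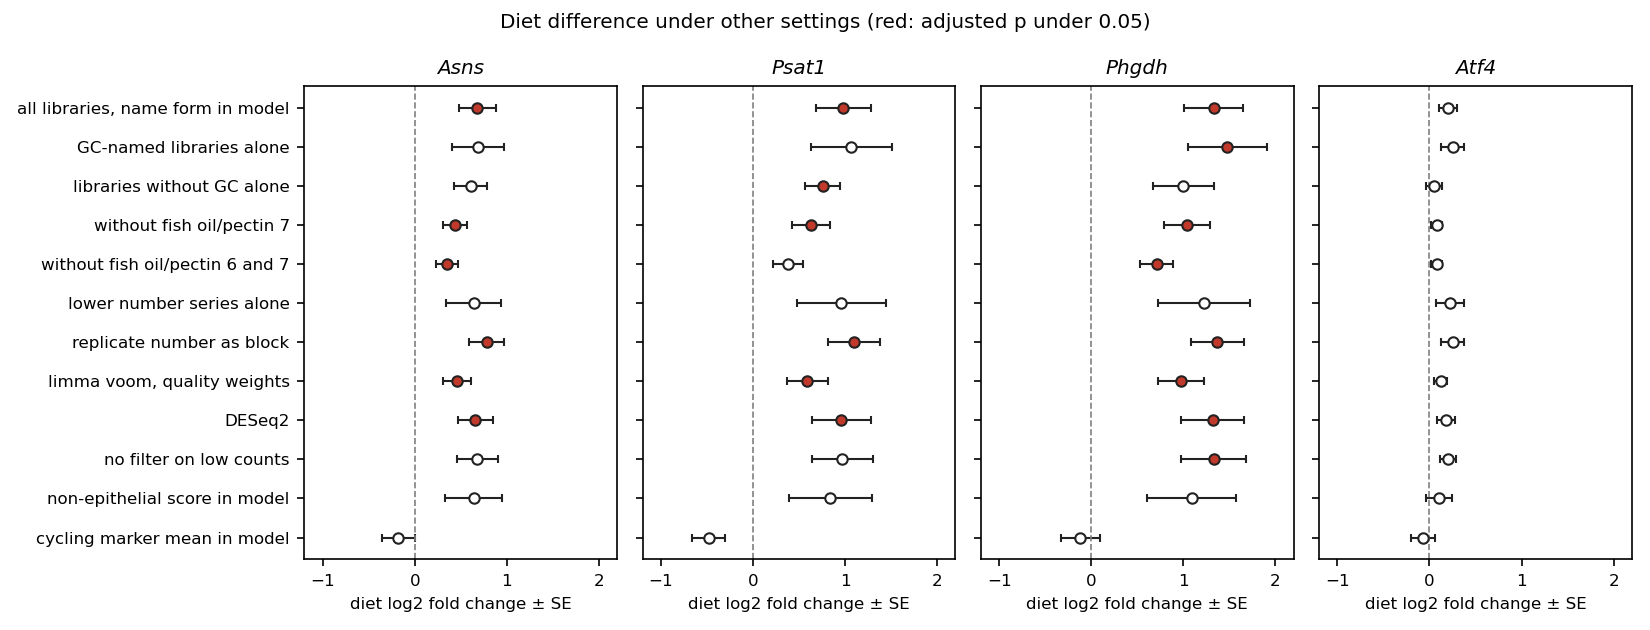
Diet log2 fold change ± SE (horizontal axis, fish oil/pectin minus corn oil/cellulose) of Asns, Psat1, Phgdh and Atf4 under 12 settings (rows; red, adjusted p under 0.05). For Asns, Psat1 and Phgdh the values lay above 0 in all the settings drawn but the model with the cycling marker mean, where they were -0.18, -0.48 and -0.12.

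Cycling cell markers were also higher with fish oil/pectin. Of 7 markers (Mki67, Top2a, Ccnb1, Cdk1, Ube2c, Tyms and Mcm5) 6 were called higher, against 21.7% of all genes. Their median log2 fold change was 0.72, and none was at 0 in any library. Their summed level was 330 to 611 CPM with corn oil/cellulose and 435 to 879 CPM with fish oil/pectin, highest in fish oil/pectin libraries 7 and 2 (879 and 826 CPM). Corn oil/cellulose library 2, which had the most Phgdh, Psat1 and Asns of its diet, also had the most of these markers (611 CPM). The order was not the same in all libraries. By summed level, fish oil/pectin library 6 had less of these markers (678 CPM) than libraries 1 and 2 of its diet (722 and 826 CPM). By the mean of their log2 CPM it lay between them (6.37 against 6.31 and 6.44). Library 6 had more Phgdh than libraries 1 and 2 (25.6 against 11.6 and 12.8 CPM) and more Psat1 (25.6 against 18.8 and 18.6 CPM). With their mean in the model, a setting added after the data were seen, the log2 fold changes were -0.18 for Asns, -0.48 for Psat1 and -0.12 for Phgdh. In that model 10 of 14542 genes (0.0688%) passed at all. The part of cycling cells in the 3 increases was not tested.

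**Figure D3:**
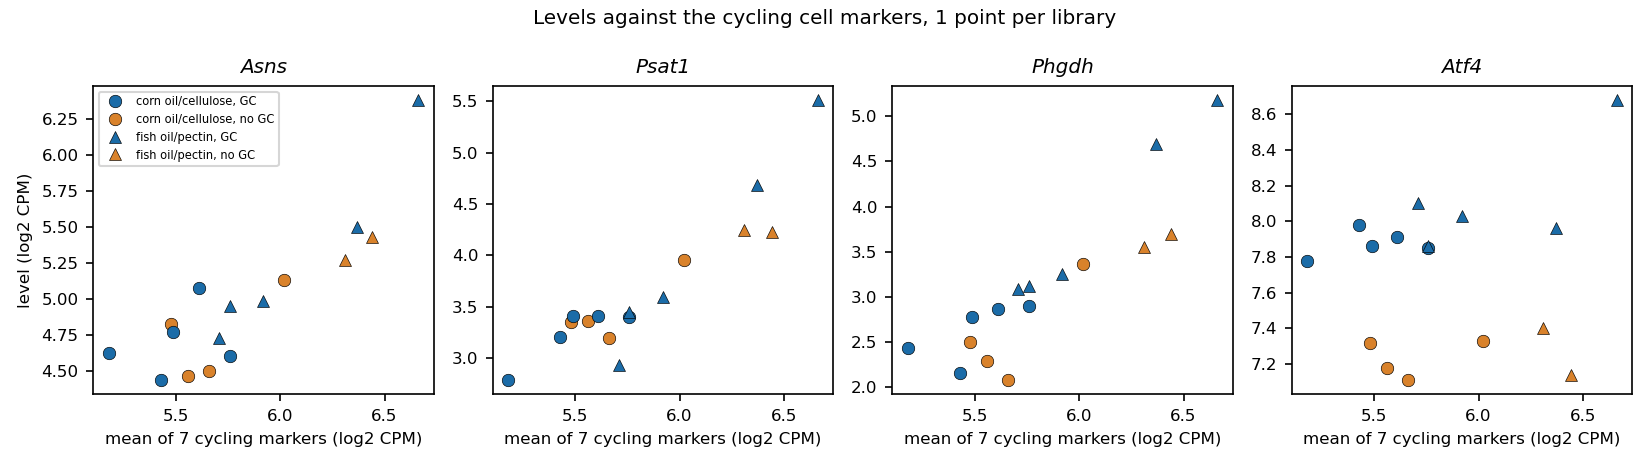
Level of Asns, Psat1, Phgdh and Atf4 (vertical axis, log2 CPM, a separate range for each gene) against the mean of 7 cycling cell markers (horizontal axis, log2 CPM), 1 point per library (circles, corn oil/cellulose; triangles, fish oil/pectin; blue, names with GC; orange, without). The 3 enzymes were highest in fish oil/pectin library 7, whose marker mean was 6.66, and Atf4 formed separate bands by name form.

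The remaining genes act as brakes, in redox balance and in growth control. Trib3 (chromosome 2, 152337422 to 152344032, minus strand), a pseudokinase that holds back ATF4 and CHOP, had 1 to 7 counts in each library. Its mean was 0.226 CPM with corn oil/cellulose and 0.252 CPM with fish oil/pectin, and in a fit without a count filter its log2 fold change was 0.10 ± 0.40 (edgeR adjusted p = 0.898). A difference was not detectable at this depth.

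Chac1 (chromosome 2, 119351229 to 119354381, plus strand), which degrades glutathione and is among the most inducible ATF4 targets, was nearly as low. It had 2 to 12 counts (0.137 to 0.716 CPM) in the corn oil/cellulose libraries. In fish oil/pectin libraries 1 to 7 it was at 0.402, 0.496, 0, 0, 0.592, 1.06 and 1.78 CPM. A count of 0 allows up to 0.179 and 0.194 CPM in libraries 3 and 4, for counting error only. The 2 highest libraries were thus fish oil/pectin 6 and 7, while libraries 3 and 4, without a count, could not be ranked against the lowest corn oil/cellulose libraries, and the log2 fold change of 0.66 ± 0.58 did not pass (edgeR adjusted p = 0.379).

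Sesn2 (chromosome 4, 132492032 to 132510501, minus strand), a leucine sensor that restrains the growth kinase mTORC1, was at 21.1 to 28.4 CPM (median 26.5) with corn oil/cellulose and at 17.6 to 29.4 CPM (median 24.9) with fish oil/pectin. The log2 fold change was -0.07 ± 0.10 (edgeR adjusted p = 0.571). Fish oil/pectin libraries 1 and 2, at 22.7 and 17.6 CPM, were below the 4 corn oil/cellulose libraries of their name form (25.4 to 28.2 CPM), as held for 16.7% of all genes. Among GC-named libraries the diets overlapped. Gm12981, whose annotated type is antisense, overlaps Sesn2 and is listed on the same strand.

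Ddit4 encodes REDD1, another inhibitor of mTORC1 (chromosome 10, 59949669 to 59951834, minus strand). It was at 93.9 to 110 CPM in GC-named corn oil/cellulose libraries and at 107 to 136 CPM in GC-named fish oil/pectin libraries, and at 54.4 to 67.7 and 49.9 to 65.3 CPM in the others. The diet log2 fold change was 0.14 ± 0.08 (edgeR adjusted p = 0.158). In GC-named libraries fitted alone it was 0.23 (adjusted p = 0.0414), and without fish oil/pectin library 2 it was 0.22 (adjusted p = 0.0215).

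The form of the library name separated another 3 of the 9 genes. Atf4 was 1.66-fold, Ddit3 1.99-fold and Ddit4 1.81-fold higher in GC-named libraries with the diet in the model, and 0 of the 9 were lower. Of all genes tested 40.5% passed by the same test, 20.2% higher and 20.3% lower in GC-named libraries. The log2 differences were 0.73 ± 0.10 for Atf4 (edgeR adjusted p = 7.20e-05), 1.00 ± 0.15 for Ddit3 (adjusted p = 8.73e-05) and 0.86 ± 0.08 for Ddit4 (adjusted p = 2.24e-06). Within each of the 3 genes the 10 GC-named libraries did not overlap the 6 others, whichever the diet, which held for 4.13% of all genes. For Ddit3 they lay at 12.3 to 26.4 against 6.01 to 9.94 CPM, and for Ddit4 at 93.9 to 136 against 49.9 to 67.7 CPM. This comparison was read from the same model after the data were seen.

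The genes that differed by diet did not pass by name form: the log2 differences were 0.02 ± 0.21 for Asns, -0.09 ± 0.31 for Psat1 and 0.23 ± 0.34 for Phgdh (edgeR adjusted p = 0.951, 0.83 and 0.614). Psph, Chac1 and Sesn2 did not pass either. Of 9 T and NK cell markers 7 were also higher in GC-named libraries, with a median log2 difference of 1.56, and 9 of 11 epithelial markers were, with a median of 0.41. Goblet cell markers went the other way: 4 of 7 were lower in GC-named libraries, 0 were higher and the median was -0.64. With Y-linked transcripts as a covariate the differences were 0.65 for Atf4, 0.77 for Ddit3 and 0.81 for Ddit4, and all 3 passed (adjusted p = 0.00697, 0.0108 and 0.000266). The part of these cells in the difference of Atf4, Ddit3 and Ddit4 was not tested.

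**Figure D4:**
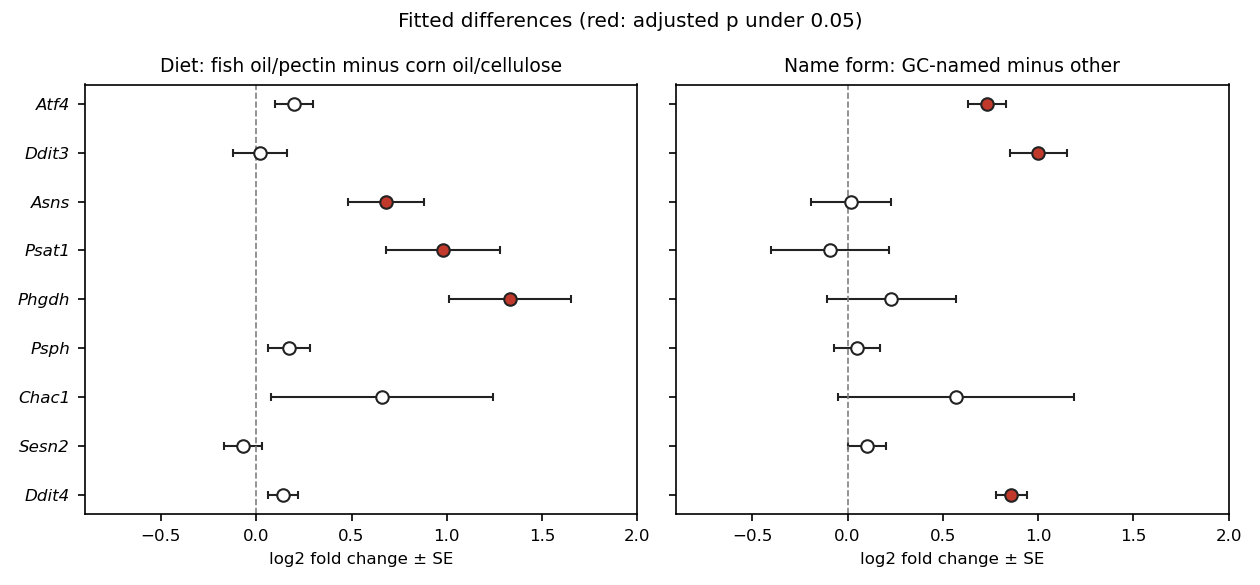
Log2 fold change ± SE (horizontal axes) of the 9 tested genes for diet, left, and for the form of the library name, right, from 1 edgeR model (red, adjusted p under 0.05). Asns, Psat1 and Phgdh are red on the left alone and Atf4, Ddit3 and Ddit4 on the right alone.

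With a diet effect for each name form, the 3 enzymes were higher in both. In GC-named libraries Asns was at 0.71 ± 0.26, Psat1 at 1.09 ± 0.39 and Phgdh at 1.50 ± 0.41 (log2 fold change, SE; edgeR adjusted p = 0.0415, 0.0367 and 0.00854), where 43.8% of 14803 genes were called and 22.2% were called higher. In the others they were at 0.59 ± 0.35, 0.74 ± 0.52 and 0.98 ± 0.54, and did not pass (adjusted p = 0.419, 0.488 and 0.381), as no gene did in this contrast (0%; 2419 genes, 16.3%, had an unadjusted p under 0.05). The differences between the forms were 0.12, 0.35 and 0.52 (adjusted p = 0.906, 0.8 and 0.703). Of all genes tested 8.03% differed between the forms in their diet effect, and 0 of the 9 did. Fitted on the GC-named libraries alone, Phgdh and Ddit4 passed (20% of genes higher) and Asns and Psat1 did not (adjusted p = 0.0743 and 0.0723). Fitted on the 6 others alone, Psat1 passed (0.76, adjusted p = 0.0468; 4.34% of genes higher). Ddit4 passed in the GC-named libraries of the joint model (0.25 ± 0.09, adjusted p = 0.03) and was at -0.08 in the others, with a difference of 0.33 that did not pass (adjusted p = 0.19). The nearest was Sesn2, at 0.09 and -0.42 ± 0.14, with a difference of 0.51 ± 0.17 (adjusted p = 0.0728).

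Libraries with more Atf4 mRNA had more Ddit3 mRNA. After the means of diet and name form were removed, Pearson's r over 16 libraries was 0.83 (permutation test, two-sided, adjusted over 9 genes, p = 0.0027) and Spearman's rho 0.77 (permutation, adjusted p = 0.00639). Without corn oil/cellulose library 1 and fish oil/pectin library 7, the 2 farthest from the Atf4 median, r was 0.75 (permutation, adjusted p = 0.0145). Within the 10 GC-named libraries and within the 6 others r was 0.83 and 0.83 (permutation p = 0.0108 and 0.0167, adjusted p = 0.0975 and 0.15). Of the 6 others, the 2 fish oil/pectin libraries are mirror images once their mean is removed, so that pair falls on a line by construction. The shuffling made no allowance for the means removed beforehand, so the permutation p-values given for Atf4 tend to be too small. Among all tested genes ranked by r with Atf4, Ddit3 stood at place 161.

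For the enzymes the relation to Atf4 was not seen once those 2 libraries were left out. Pearson's r with Atf4 was 0.71 for Asns, 0.67 for Psat1, 0.59 for Phgdh and 0.59 for Psph (permutation, adjusted p = 0.0299 for each), with Spearman's rho of 0.36, 0.42, 0.33 and 0.38 (permutation, adjusted p = 0.319 for each). Without the 2 libraries r was -0.04, -0.02, -0.03 and 0.19. The 2 were picked by Atf4 level before the means were removed, and values without each alone are not given. Within the GC-named libraries r was 0.75, 0.69, 0.61 and 0.62. Within the others, which do not hold fish oil/pectin library 7, it was 0.49, 0.52, 0.51 and 0.37. None of these passed. Chac1 (0.53), Trib3 (0.36), Sesn2 (-0.36) and Ddit4 (0.18) did not pass. Among themselves the 3 enzymes followed each other closely, with r of 0.91 for Asns and Psat1, 0.92 for Asns and Phgdh and 0.94 for Psat1 and Phgdh. Sesn2 ran against them, with r of -0.72 with Asns. These 4 values are descriptions over the same 16 libraries, which share depth and fish oil/pectin library 7.

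The genes most like Atf4 over the 16 libraries, with the same means removed, were Mrps17 (r = 0.95), Wdr83os (0.93), Cmc2 (0.92), Hbs1l (0.91) and Med8 (0.91). By diet Mrps17, Wdr83os, Cmc2 and Med8 were higher with fish oil/pectin, by 0.31, 0.47, 0.65 and 0.27 on the log2 scale, and Hbs1l was at 0.09 (edgeR adjusted p = 0.213). Most like Asns were Lyar, Set and Psmc2 (0.98 each), C1qbp and Pdia4 (0.97 each). All 5 were higher with fish oil/pectin, by 0.41 to 0.64. Over all genes tested 21.7% were higher. The 5 genes named for each were picked for the highest r among all genes tested, leaving out predicted genes and pseudogenes. Their r is therefore high by selection. Fish oil/pectin library 7, which had the most Atf4 (411 CPM) and the most Asns (83.1 CPM), is among the 16 libraries. How far the rankings depend on that library was not tested. Among the tested genes ranked by r with Asns, Phgdh and Psat1 stood at places 162 and 193 and Atf4 at 1614.

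Upstream of ATF4, 0 of the 4 eIF2α kinase transcripts rose with fish oil/pectin and 1 fell. Eif2ak1 (haem-regulated kinase HRI) was at -0.03 ± 0.06, Eif2ak3 (PERK, of the endoplasmic reticulum) at -0.17 ± 0.08 and Eif2ak4 (GCN2, which senses uncharged tRNA) at -0.02 ± 0.07 (log2 fold change, SE; edgeR adjusted p = 0.738, 0.0803 and 0.82). Eif2ak3 passed as lower in GC-named libraries alone (-0.31, adjusted p = 0.0119), with scaling by library totals (-0.24, adjusted p = 0.0296), and without corn oil/cellulose library 3 (-0.20) or fish oil/pectin library 2 (-0.21), and was at 0.04 in libraries without the GC prefix alone. Eif2ak2, the double-stranded RNA sensor PKR, fell by 0.31 (adjusted p = 0.0219), a call lost without fish oil/pectin libraries 6 and 7 (-0.23, adjusted p = 0.101). The call was also lost without the name form term, with replicate number as a block and in the lower number series. It was lost as well with either marker covariate and once a trend on exon length was removed. In libraries without the GC prefix alone Eif2ak2 was at 0.09. Impact, an inhibitor of GCN2 activation, fell by 0.26 (adjusted p = 0.0146); it was at -0.08 in libraries without the GC prefix alone and at -0.31 in the lower number series, and passed in neither (adjusted p = 0.739 and 0.0552). Eif2s1, which encodes eIF2α itself, rose by 0.41 (adjusted p = 0.0014) and Eif2b5, a subunit of the exchange factor eIF2B, by 0.29 (adjusted p = 0.000987). In the whole list of kinases, eIF2, eIF2B and their regulators 5 of 17 rose and 3 fell, with a median of -0.0046, near the shares over all genes (21.7% higher and 20.1% lower).

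Of 14 partners and feedback regulators of ATF4 tested, 2 rose, 2 fell and the median was 0.02. Neither count is above the share over all genes, 21.7% higher and 20.1% lower. Eif4ebp1, a repressor of cap-dependent translation and a known ATF4 target, rose by 0.58 ± 0.13 (edgeR adjusted p = 0.0026) and Atf5, a related factor with the same kind of translational control, by 0.34 ± 0.11 (adjusted p = 0.0186). Vldlr, a lipoprotein receptor induced by ATF4, fell by 0.55 (adjusted p = 0.00046) and Nfe2l2, which encodes the antioxidant factor NRF2, by 0.18 (adjusted p = 0.0362). The call of Nfe2l2 was lost (-0.14 to -0.18) when corn oil/cellulose 1 or 9, or any of fish oil/pectin 2, 4, 5 and 6, was left out, and without fish oil/pectin libraries 6 and 7 (-0.14, adjusted p = 0.0927). Atf5 was at 0.22 without fish oil/pectin library 7 and at 0.18 without libraries 6 and 7 (adjusted p = 0.049), and Eif4ebp1 at 0.39 without libraries 6 and 7. In libraries without the GC prefix alone Atf5 was at 0.06 and Eif4ebp1 at 0.18, and neither passed. Of 10 amino acid transporters 1 rose and 2 fell, with a median of 0.03, counts that are also not above those shares. Slc7a5, a carrier of large neutral amino acids, was at 0.56 ± 0.22 (adjusted p = 0.0475) and lost its call (0.39 to 0.58) when any of corn oil/cellulose 1, 3, 4, 5, 6 and 9, or of fish oil/pectin 1, 2, 5 and 7, was left out, and without fish oil/pectin libraries 6 and 7 (0.41, adjusted p = 0.15). Slc38a2 and Slc38a7, which carry neutral amino acids and glutamine, fell by 0.27 and 0.22. Both calls were lost in libraries without the GC prefix alone, in the lower number series and with either marker covariate (non-epithelial or cycling). That of Slc38a2 was also lost once a trend on exon length was removed, and that of Slc38a7 with replicate number as a block.

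Most enzymes listed beside Phgdh and Psat1 were higher too. In the list of serine, one-carbon and proline synthesis 9 of 13 were higher with fish oil/pectin, 0 were lower and the median was 0.34, against 21.7% higher and a median of -0.0043 over all genes. The other 4 did not pass. Mthfd2, of the mitochondrial folate pathway, rose by 0.89 ± 0.25 (edgeR adjusted p = 0.00955), Shmt2, which splits serine in mitochondria, by 0.49 ± 0.12 (adjusted p = 0.00467), its cytosolic form Shmt1 by 0.34 ± 0.07 (adjusted p = 0.00205) and Pck2, the mitochondrial PEP carboxykinase, by 0.28 ± 0.08 (adjusted p = 0.00815). Without fish oil/pectin libraries 6 and 7, 6 of the 13 were higher (15.2% of all genes), and within the lower number series 0 were (8.37%). Mthfd2 was at 0.58 without library 7.

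Cytosolic aminoacyl-tRNA synthetases, which load tRNAs with amino acids and many of which ATF4 can induce, were higher for 16 of 21, lower for 0, with a median of 0.32. Over all genes 21.7% were higher and 20.1% lower, with a median of -0.0043. Kars rose by 0.35 ± 0.05 (edgeR adjusted p = 0.00047) and Sars by 0.39 ± 0.07 (adjusted p = 0.000611). Mars, which overlaps Ddit3, was 1 of the 16. Without fish oil/pectin libraries 6 and 7 the count was 11 of 21 (15.2% of all genes), and within the lower number series 3 of 21 (8.37%). With the cycling marker mean in the model 0 of the 21 synthetases and 0 of the 13 enzymes above passed, where 0.0688% of all genes did. The part of cycling cells in these counts was not tested.

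Stress responses that run beside ATF4 gave mixed counts. In the ATF6 and XBP1 arm of the unfolded protein response 10 of 21 rose and 4 fell, with a median of 0.41. Over all genes 21.7% were higher and 20.1% lower. The 4 that fell here, and the 1 of 6 paralogs named below, are near that share. The chaperone genes Hspa5 (BiP), Calr and Pdia3 rose by 0.64 ± 0.22, 0.57 ± 0.13 and 0.43 ± 0.10 (edgeR adjusted p = 0.0266, 0.00214 and 0.00212). The call of Hspa5 was lost without corn oil/cellulose library 9 (0.57) or fish oil/pectin library 1 (0.61), and its value was 0.38 without library 7. Without fish oil/pectin libraries 6 and 7 it was 0.30 (adjusted p = 0.127), and it also missed the threshold in GC-named libraries alone (0.61), in the others alone (0.65), in the lower number series (0.57), with no filter (0.64) and in voom (0.41). Ern2, an epithelial form of the stress sensor IRE1, fell by 0.46 and Sel1l, of the degradation machinery, by 0.26 (adjusted p = 0.00228 and 0.000842). Of 10 mitochondrial chaperones and proteases 7 rose and 0 fell, with a median of 0.24; the protease subunit Clpp was at 0.48 and the chaperone Trap1 at 0.22 (adjusted p = 0.000811 and 0.00178). Of the 6 tested paralogs of Trib3, Sesn2, Chac1 and Ddit4, 0 rose and 1, Sesn3, fell by 0.24 (adjusted p = 0.0264), a call lost when corn oil/cellulose 5, corn oil/cellulose 7 or fish oil/pectin 4 was left out, and without fish oil/pectin libraries 6 and 7 (-0.18, adjusted p = 0.0826). Without fish oil/pectin libraries 6 and 7 the unfolded protein response counts were 8 higher and 4 lower, and 7 mitochondrial genes rose. In that fit 15.2% of 14247 genes were higher, and 2156 genes were lower. With the cycling marker mean in the model no gene of these lists passed, where 0.0688% of all genes did.

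**Figure D5:**
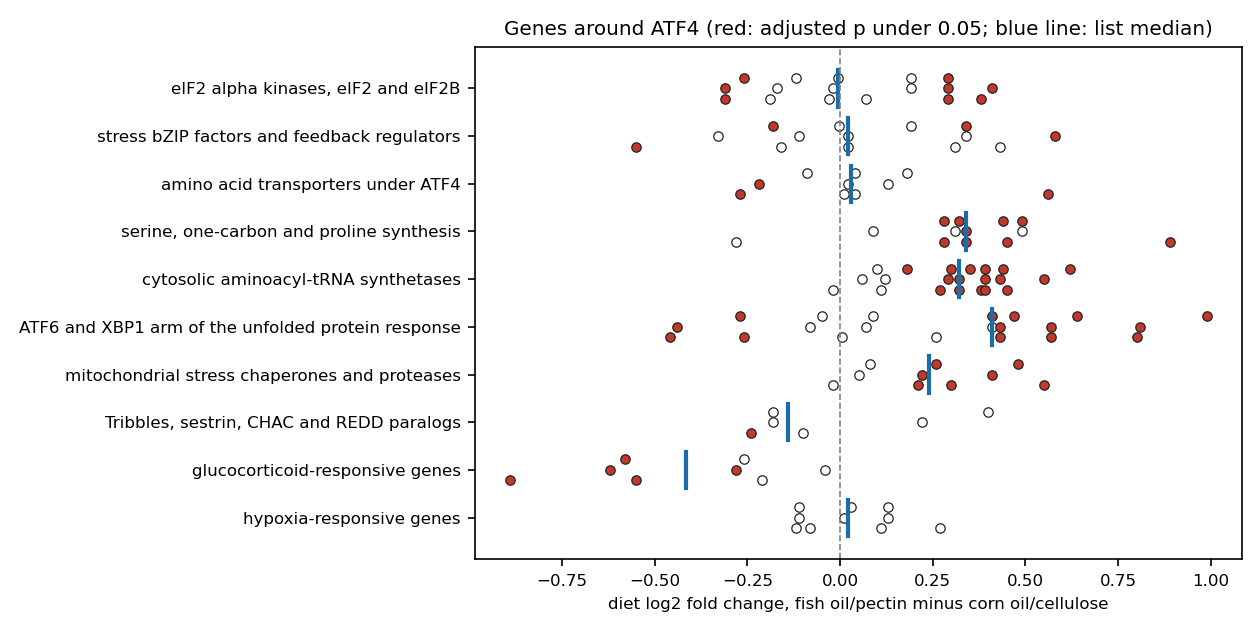
Diet log2 fold change (horizontal axis, fish oil/pectin minus corn oil/cellulose) of each tested gene in 10 lists around ATF4 (rows; 1 point per gene, spread vertically for legibility; red, adjusted p under 0.05; blue line, list median). Points for serine and one-carbon enzymes and for tRNA synthetases lie mostly above 0, with medians of 0.34 and 0.32, and those for the eIF2α kinase list lie on both sides.

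A set of 24 genes of the response, all tested, was drawn up whose genes also stand in the lists above. Of these, 6 rose and 2 fell with fish oil/pectin, and those calls are already counted and named above. The other 16 did not pass. Against the shares over all genes, 21.7% higher and 20.1% lower, the 6 were near the background and the 2 below it.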

How the data were processed

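Per the labels' protocols, 200 ng of column-purified RNA per sample was made into a stranded mRNA library. The authors deposited raw read counts, unnormalized, with 1 row per symbol; STAR 2.6.0a, HTSeq 0.11.1 and GRCm38 are given in the submitters' processing notes. The strand setting and the annotation release are not given in the sources used. Symbols were placed on GENCODE M21.

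The counts were fitted with edgeR 4.0.16 (R 4.3.3; robust quasi-likelihood test, TMM scaling, filterByExpr) with terms for diet and name form, keeping 14321 genes with 99.9% of counts and 13 residual degrees of freedom. SE was taken as the log2 fold change divided by the root of the F statistic. Adjusted p-values are Benjamini-Hochberg over all genes, with a threshold of 0.05. CPM use TMM factors. The fit was tested on simulated data. No 2 libraries of a diet agreed within sampling noise (chi-square per degree of freedom 8.2 to 141 over 57 pairs). Replicate numbers did not pair the libraries. Correlations used log2 CPM (prior count 2) and 100000 resamples, or all orders for 6 libraries, without allowance for the means removed.

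The genes and lists were chosen with earlier results of these data known. Named were the 10 genes, in each list up to 2 higher and 2 lower genes of lowest p, the called genes and eIF2α kinases of a set of 24, and the 5 genes most like Atf4 and Asns each. Alternatives covered libraries, scaling, filters, covariates, DESeq2 1.42.0 and limma 3.58.1 voom.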

Additional observations from a re-analysis of the deposited data

Results flagged for a closer look

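In each diet, the highest and the lowest library of each gene were compared with the rest of their group by Dixon's gap ratio, the gap to the next library over the range of the group. Of 20 groups, 3 were beyond its 95% limit, where chance alone flags about 1 in 20. Asns in fish oil/pectin library 7 was at 83.1 CPM, with the next library at 45.2 CPM (gap ratio 0.668). Psat1 in corn oil/cellulose library 2 was at 15.4 CPM, with the next at 10.5 CPM (gap ratio 0.573). Trib3 in corn oil/cellulose library 9 was at 0.434 CPM, with the next at 0.254 CPM (gap ratio 0.572), which is 7 counts against 4.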

How the results depend on the processing

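The diet fit was repeated under 32 settings, 16 of which left out 1 library. Of 5979 genes called, the count ranged from 5078 to 6065 without 1 library. It was 3454 with the replicate block, 900 in libraries without the GC prefix, 2250 in the lower number series, 467 with a non-epithelial marker score and 10 with the cycling marker mean. Scaled by library totals it was 6026, of which 37.3% were higher against 51.9% with TMM. With the exon length trend removed it was 4761, of which 66.8% were higher. Asns, Psat1 and Phgdh passed there, and the calls of Impact, Eif2ak2, Atf5, Slc7a5, Slc38a2 and Sel1l were lost. In that fit 0 genes of the eIF2α kinase list and 2 of the unfolded protein response list were lower. Of the 10 genes 3 or 4 were called without 1 library, 1 without the GC prefix (Psat1), 0 in the lower series, 1 with no filter (Phgdh; 28219 genes tested), 0 with the non-epithelial score (Asns 0.64, Psat1 0.84, Phgdh 1.09) and 0 with the cycling mean. The causes were not tested.

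Replicate numbers did not pair libraries: correlations of same-numbered deviations were 0.02, -0.09, -0.05, 0.28, -0.15, 0.06 and -0.11, and 1 of 14 libraries correlated best with its own number. In the block fit, with 3454 genes called, Chac1 also passed (1.44, edgeR adjusted p = 0.0292) and Asns, Psat1 and Phgdh did too.

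Signs changed as follows, on the log2 scale. With the cycling mean: Atf4 -0.07, Ddit3 -0.19, Asns -0.18, Psat1 -0.48, Phgdh -0.12, Psph -0.09, Chac1 -1.15, Sesn2 0.19, Slc7a5 -0.27, Shmt2 -0.03, Eif2ak1 0.14, Mthfd2 -0.18, Hspa5 -0.24, Hbs1l -0.0011, Lyar -0.07 and Pdia4 -0.05. Without the GC prefix: Ddit3 -0.33, Psph -0.03, Ddit4 -0.06, Eif2ak2 0.09, Eif2ak3 0.04, Eif2ak4 0.23 and Hbs1l -0.01. Without fish oil/pectin 6 and 7: Ddit3 -0.14, Psph -0.01, Eif2ak1 0.0046 and Eif2ak4 0.01. With the exon length trend removed: Ddit3 -0.13, Sesn3 0.07, Eif2ak1 0.06 and Eif2ak4 0.13. Ddit3 was also at -0.07 in the lower series, -0.07 scaled by totals, -0.0014 with at least 10 counts in every library, -0.00065 in DESeq2, -0.07 in voom, -0.22 with the non-epithelial score and -0.04 with Y-linked transcripts as a covariate. Chac1 was at -0.56 in voom, Sesn2 at 0.07 in GC-named libraries and Eif2ak4 at 0.07 with the non-epithelial score. Without 1 library, Ddit3 ranged from -0.10 to 0.12, Sesn2 from -0.13 to 0.02, Eif2ak1 from -0.07 to 0.0045 and Eif2ak4 from -0.09 to 0.01.

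The name form differences passed in 26 of 27 settings (Atf4 0.49 to 0.87, Ddit3 0.74 to 1.32, Ddit4 0.68 to 0.99) and not with the replicate block, where adjusted p was 0.634, 0.64 and 0.407. Diet effects that differed between forms numbered 1188 and ranged from 6, without fish oil/pectin 2, to 1717 (212 without fish oil/pectin 1, 340 without corn oil/cellulose 3). Among the 9 tested genes 0 to 1 did, Sesn2 without fish oil/pectin 7. Atf4 correlations passed for 5 genes, and for 1 without the 2 far libraries, 0 in GC-named, 0 in other libraries and 2 with means kept. Synthetases called higher were 14 to 16 of 21 without 1 library, and 8 in GC-named and 3 in lower series libraries. Serine and one-carbon enzymes called higher were 6 to 10 of 13, and 4 and 0. Of all genes 20% were called higher in GC-named libraries alone and 8.37% in the lower series.

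Depth limits Trib3 and Chac1, at 0 to 31 counts a library.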

Other observations

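Ddit4 is also known as a glucocorticoid-induced and a hypoxia-induced gene. Of 8 glucocorticoid-responsive genes 5 were lower with fish oil/pectin and 0 higher, against 20.1% of all genes lower, with a median log2 fold change of -0.41, while Ddit4 was at 0.14. Dusp1, a phosphatase of MAP kinases, fell by 0.55 ± 0.11 and Klf9, a hormone-induced repressor, by 0.58 ± 0.15 (edgeR adjusted p = 0.00109 and 0.00568). Without fish oil/pectin libraries 6 and 7, 3 of the 8 were lower, as without corn oil/cellulose library 7. The count was 2 without the name form term, 1 in the lower number series and 0 in libraries without the GC prefix alone. By name form, with 20.2% of genes higher and 20.3% lower, 4 of the 8 were higher in GC-named libraries, as Ddit4 was, and 1 lower. Of 10 hypoxia-responsive genes 0 passed by diet, with a median of 0.02, in edgeR.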
